A study of Homo sapiens with 12 samples.

Results

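The genes of G2 phase and mitosis are described here in HT29, a line of human colorectal adenocarcinoma cells, after treatment with a hot water extract of Aconitum carmichaeli Debeaux (ACD), an aconite root used as a herbal medicine. The set was a named list of 48 genes whose products act between late G2 and the end of cell division. The genes were taken up by symbol, and the list was chosen with earlier results of these data known. All 48 were found among the 60675 gene IDs of the deposited table, and all 48 passed the filter on low counts that left 15374 genes for testing. Each gene was measured by RNA-seq in 12 libraries, and each of the 4 groups held 3 libraries. Cells were kept for 24 h with a low dose (20 µg/mL), a medium dose (100 µg/mL) or a high dose (500 µg/mL) of extract. The remaining group received vehicle (PBS with 2% DMSO). Per the paper, the extract was also prepared in PBS with 2% DMSO. The solutions were added to wells of growth medium, so 2% is not the final concentration. The purpose of the series was to compare the transcriptional response to the extract between an intestinal and a brain cell line, and only the HT29 libraries with vehicle or ACD were analysed here. The titles of the libraries name ACD, a longer treatment note describes an extract of a different herb (Poria cocos), and the grouping followed the titles. The labels do not state that the replicates were separate cultures, so every p-value measures the spread between these samples only, which may be technical.

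A cell enters mitosis when cyclin B bound to the kinase CDK1 is switched on by CDC25 phosphatases, with Polo-like and Aurora kinases acting beside it. Kinetochores then attach the chromosomes to the spindle, the spindle assembly checkpoint holds back the anaphase-promoting complex until all are attached, and separase finally cuts the cohesion between sister chromatids. Transcripts of most of these genes are made periodically, are low in G1 and peak in G2 and mitosis, so in a dividing tumor line such as HT29 their level in bulk RNA depends on the share of cells in those phases. In these libraries, fewer cells in a phase and less RNA per cell cannot be told apart.

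Each library held between 15941255 and 33866644 expected counts, and a member gene held between 287 and 23316 of them in a library. Levels are given as CPM (counts per 1000000 counts of the library, scaled by the TMM method). Of 14 markers of colon epithelium, 13 were above 1 CPM in every library, and their sum was 11534 to 13604 CPM in vehicle and 11657 to 13663 CPM at the high dose. Of 8 immune markers, LYZ, CD14 and CD68 were above 1 CPM in every library and the other 5 were below 1 CPM in every library. The summed level of the immune list was 1661 to 1841 CPM in vehicle and 1274 to 1900 CPM at the high dose. Of 7 astrocytoma and 9 fibroblast and endothelial markers, 5 and 6 stayed below 1 CPM in every library. High-dose replicate 2 stood apart. Its log2 difference from the average of its group mates had an SD of 0.502 over all genes above 5 CPM and 0.516 over the 48 genes, against at most 0.293 and 0.278 in any other library. It was also the library with the fewest counts. High-dose fold changes that moved without it are therefore mostly given both ways. The mitochondrial share of counts was 14 to 16.6% at the high dose and 7.41 to 11.1% in the other groups, and its part in the results was not tested beyond a repeat without mitochondrial genes.

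Many promoters of this gene class carry a cell cycle genes homology region (letters TTTGAA or TTCGAA), where repressor and activator complexes of the cell cycle sit, together with CCAAT boxes, to which NF-Y binds. Promoter windows of 300 bases (250 before and 50 after the start of the RefSeq gene, GRCh38.p14) were at hand for 41 of the 48 genes, and were searched on both strands. TTTGAA was present in 29 of the 41 windows (70.7%), and in 15.4% of 27305 promoter windows of the genome. TTCGAA was present in 3 of the 41 (7.32%) and in 1.45% of all windows. CCAAT was present in 33 (80.5%) and in 35.7% of all windows. Both TTTGAA and CCAAT were present in 25 (61%) and in 6.08% of all windows. TTTGAA reads TTCAAA on the opposite strand, where CCAAT is read as ATTGG. The first and the last of these motifs can share a base, as happens in the second MKI67 run shown here, and a match describes the sequence and not the use of a site. FOXM1, AURKA, BIRC5, BUB3, TTK, UBE2C and TPX2 had no window. The matches are shown for the genes whose values are given in full below, a choice made after the values were seen. Each run of 26 bases reads 5′ to 3′ on the strand that carries TTTGAA, which stands in capitals. The positions of the runs are chr10:60778160-60778185 for CDK1, chr16:23678850-23678875 for PLK1, chr1:43358793-43358818 and chr1:43358906-43358931 for CDC20, chr17:40418075-40418100 and chr17:40418032-40418057 for TOP2A, and chr10:128126455-128126480 and chr10:128126437-128126462 for MKI67. The CDK1, PLK1 and CDC20 genes lie on the plus strand, and the TOP2A and MKI67 genes on the minus strand. In the first CDC20 run and the second TOP2A run, TTTGAA is on the strand opposite to the gene. The windows count from RefSeq starts, whereas the spans of genes given below are those of GENCODE 44, whose starts differ in places, so that the PLK1 run lies inside the GENCODE span of PLK1. The CCNB1 window held no TTTGAA.
CDK1: gtataataaaTTTGAActgtgccaat
PLK1: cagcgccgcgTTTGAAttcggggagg
CDC20, first: cggagcgcgaTTTGAAgggtacgaga
CDC20, second: acggttggatTTTGAAggagccaata
TOP2A, first: agtggtgcctTTTGAAgcctctctag
TOP2A, second: ccggggtttgTTTGAAtaaaccaatc
MKI67, first: agcgccagaaTTTGAAtcttcgtttt
MKI67, second: ttcgttttcgTTTGAAttgggcgggc

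In vehicle, HT29 cells expressed every one of the 48 genes. Per kilobase of the canonical transcript, UBE2C, the ubiquitin-conjugating enzyme of the anaphase-promoting complex, was highest at 150 ± 15.3 CPM per kb (SD, n = 3 libraries), followed by securin (PTTG1) at 146 ± 22.9 and the CDK subunit CKS1B at 137 ± 14. These 3 neighbours differed by less than their SDs. Shugoshin (SGO1), which guards centromeric cohesion, was lowest at 5.7 ± 0.402 CPM per kb, then the kinesin KIF14 at 6.85 ± 0.526 and the kinetochore motor CENPE at 7.8 ± 0.191. Replicates were close outside the high dose. The median coefficient of variation over the 48 genes was 4.59% in vehicle, 4.91% in low-dose, 3.59% in medium-dose and 14.2% in high-dose cells, and over all genes above 5 CPM it was 6.43, 5.19, 4.15 and 13.7%.

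At the high dose, the G2 and mitosis genes stayed near their vehicle level. One gene, BUB1B, a kinase-like protein of the spindle assembly checkpoint, passed an adjusted p of 0.05 in edgeR's quasi-likelihood test and was higher, and 0 of 48 were lower. Of all genes tested, 5.77% passed in this comparison (2.82% higher and 2.95% lower). The median log2 fold change of the 48 genes was 0.05, that of all genes tested was 0.01, and the values ran from −0.20 (KIF14) to 0.38 (the kinetochore protein NUF2). No member passed with a fold change over 1.5. At an unadjusted p under 0.05 there were 6 genes (12.5%), all higher, against 20.1% of all genes tested. These were BUB1B, PRC1, CDC25B, TTK, CCNA2 and NUF2. For 8 genes, each high-dose library exceeded each vehicle library (the same 6, TPX2 and TOP2A), as was so for 10.5% of all genes, and for 0 genes each was lower, as was so for 11.5%. The 95% interval of the fold change lay within 1.5-fold in both directions for 42 of the 48 genes (87.5%), against 63.9% of all genes tested. The other 6 were CDK1, CKS1B, CKS2, MAD2L1, NUF2 and MKI67, for which a change of 1.5-fold was not excluded by the interval. CKS1B was at 102, 177 and 101 CPM in the high-dose libraries. Its log2 fold change was 0.25 with high-dose replicate 2 and −0.07 without it.

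**Figure D1:**
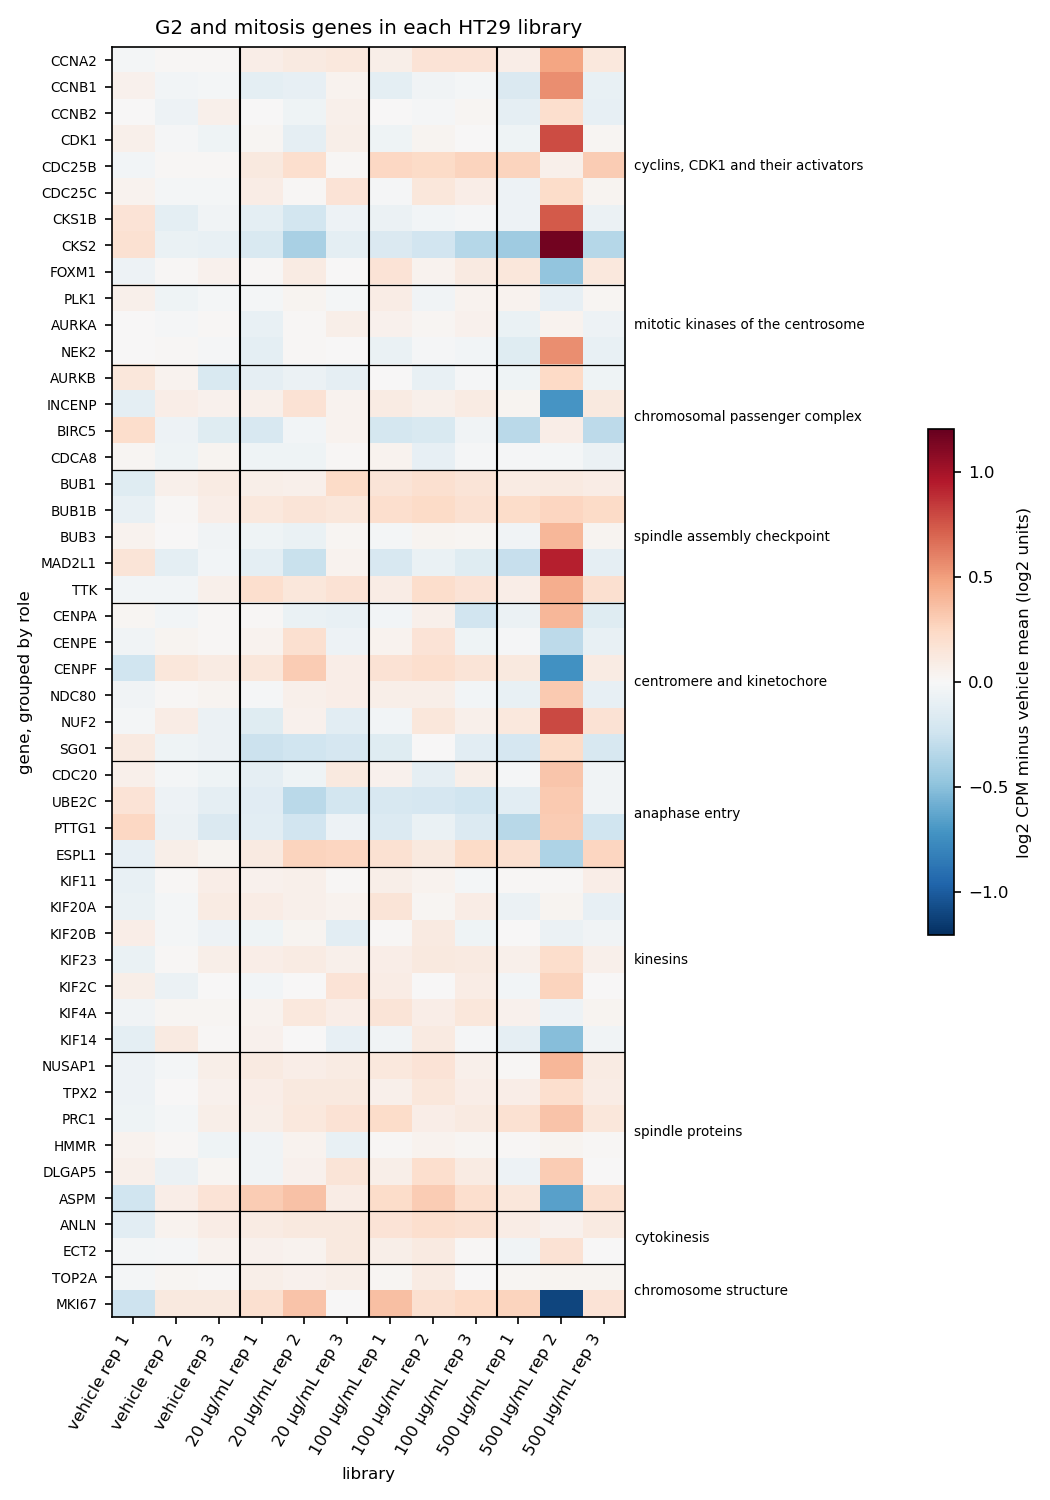
Log2 CPM minus the mean of the vehicle libraries (color, log2 units) for the 48 genes (vertical axis, grouped by role) in the 12 libraries (horizontal axis). High-dose replicate 2 runs from −1.10 (MKI67) to 1.16 (CKS2), and no other library leaves the range from −0.43 to 0.36.

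Without high-dose replicate 2, 5 of the 48 genes passed at the high dose, where 18.7% of all genes tested did, 9.83% higher and 8.89% lower (edgeR's quasi-likelihood test). CDC25B (log2 fold change 0.28, adjusted p = 0.00228), BUB1B (0.22, adjusted p = 0.0119) and separase (ESPL1, 0.22, adjusted p = 0.0263) rose. CKS2 (−0.38, adjusted p = 0.00785) and survivin (BIRC5, −0.32, adjusted p = 0.0316) fell. With all libraries 33 of the 48 values were above 0, against 51% of all genes. The median without replicate 2 was −0.01, and 22 values were above 0, as were 7419 of 15374 over all genes. The values ran from −0.38 to 0.28, so that no gene reached 1.5-fold under either reading.

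**Figure D2:**
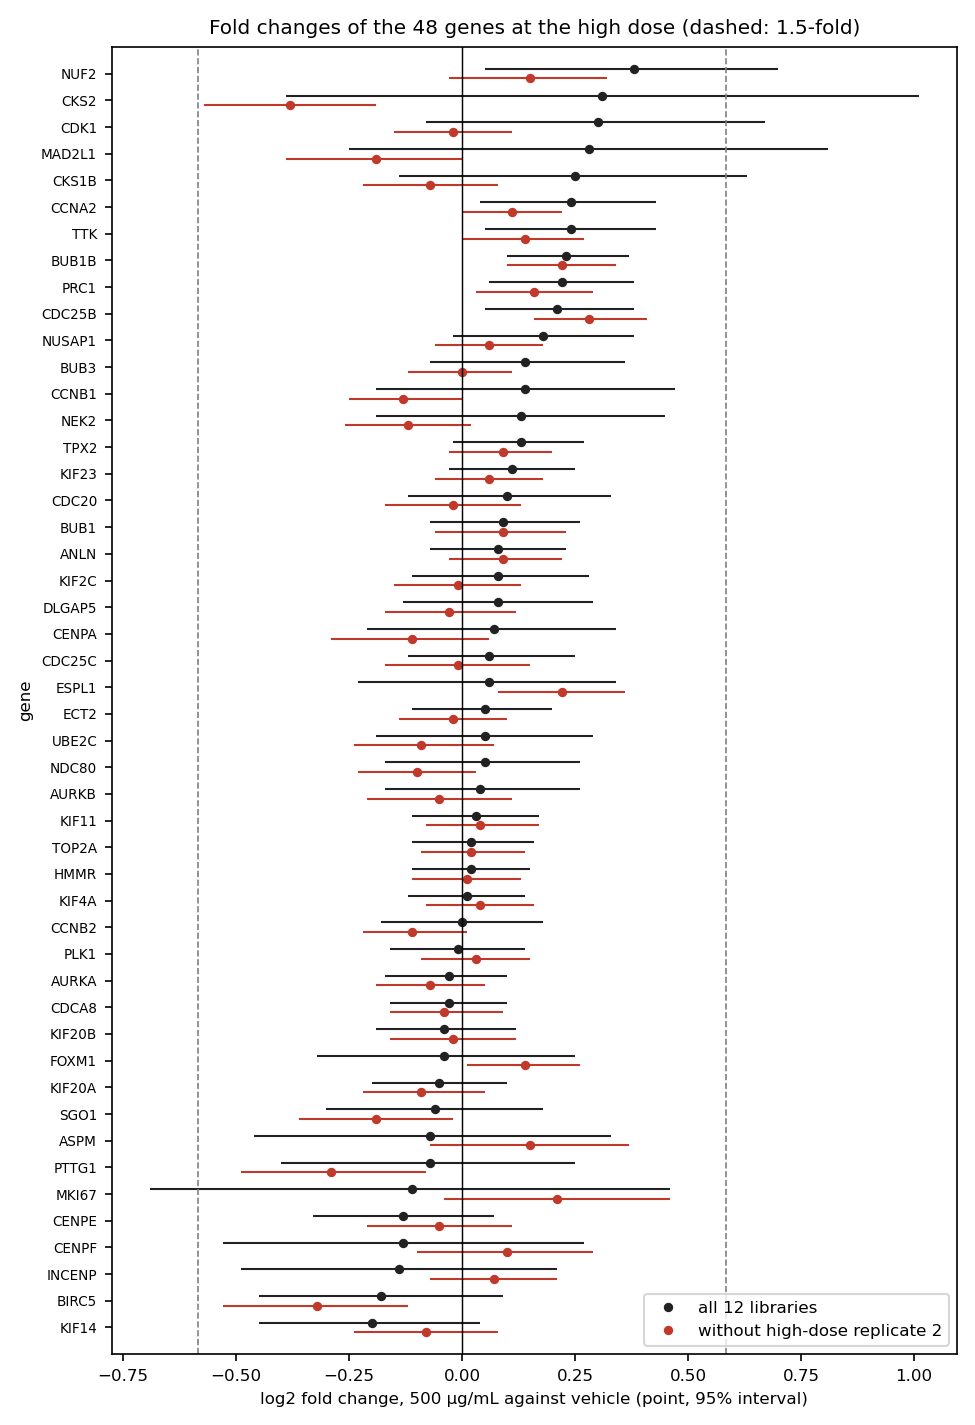
Log2 fold change (horizontal axis, point with 95% interval) of each of the 48 genes (vertical axis) at 500 µg/mL against vehicle, with all 12 libraries (black) and without high-dose replicate 2 (red). Dashed lines mark 1.5-fold. Every point lies between −0.38 and 0.38, and the red intervals are narrower than the black ones for CKS2, MAD2L1, CDK1 and MKI67.

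The cyclins, CDK1 and their activators were 9 genes, of which 0 passed at any dose (edgeR, lowest adjusted p 0.136 at the high dose). CDK1 (ENSG00000170312), the kinase that starts mitosis, lies on chromosome 10 of GRCh38 from 60778331 to 60794852. It was at 112, 107 and 104 CPM in vehicle, 109, 100 and 113 in low-dose cells, 104, 110 and 108 in medium-dose cells, and 104, 185 and 109 in high-dose cells. High-dose replicate 2 was above all other libraries, and the other 11 libraries overlapped between groups. The log2 fold change at the high dose was 0.30 (SE 0.17, 95% interval −0.08 to 0.67, adjusted p = 0.373), and it was −0.02 without that library. CCNB1 (ENSG00000134057), cyclin B1, the partner of CDK1, lies on chromosome 5 from 69167135 to 69178245. It was at 187, 177 and 179 CPM in vehicle, 167, 169 and 186 in low-dose cells, 166, 177 and 178 in medium-dose cells, and 161, 267 and 170 in high-dose cells. Again only replicate 2 of the high dose stood above the rest. The log2 fold change was 0.14 (SE 0.15, interval −0.19 to 0.47, adjusted p = 0.676) with it and −0.13 without it, so the sign turned on 1 library.

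FOXM1 (ENSG00000111206, chromosome 12, 2857680 to 2877174), a transcription factor of G2 and mitosis genes, gave the opposite picture. It was at 196, 204 and 211 CPM in vehicle, 204, 219 and 203 in low-dose cells, 227, 209 and 219 in medium-dose cells, and 225, 147 and 223 in high-dose cells. Here high-dose replicate 2 was the lowest of the 12 libraries, and its group mates were close to the medium dose. The log2 fold change was −0.04 (SE 0.13, interval −0.32 to 0.25, adjusted p = 0.919), and 0.14 without that library (adjusted p = 0.108). FOXM1 overlaps genes on the opposite strand whose highest group mean was 31.6 CPM. Per the paper, the libraries were made with a directional kit. The strand setting of the counting is not given in the sources used here. Of the 48 genes, 19 overlap a gene on the opposite strand and 11 a gene on the same strand. For KIF20A and CDC25C, the genes on the opposite strand reached 60.8 and 52 CPM.

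CDC25B, the phosphatase that activates CDK1 at the centrosome, was at 133, 136 and 136 CPM in vehicle, 160, 159 and 163 in medium-dose cells, and 163, 140 and 166 in high-dose cells. All medium-dose and high-dose libraries were above all vehicle libraries. Its log2 fold change was 0.25 at the medium dose (SE 0.08, adjusted p = 0.201) and 0.21 at the high dose (SE 0.08, adjusted p = 0.136), and it passed at both only without high-dose replicate 2 among the fits of all 4 groups. CKS2, a small subunit that binds CDK1, had the widest interval, at 70.4, 58.8 and 58.5 CPM in vehicle and 46.2, 139 and 49.2 at the high dose. High-dose replicate 2 exceeded every other library, and its group mates lay below all of vehicle. Its log2 fold change was 0.31 (SE 0.32, interval −0.39 to 1.01, adjusted p = 0.658), and −0.38 (adjusted p = 0.00785) without replicate 2. Of the remaining members of the group, cyclin A2 (CCNA2) had a log2 fold change of 0.24 (interval 0.04 to 0.43, adjusted p = 0.167) and cyclin B2 (CCNB2) of 0.00 (interval −0.18 to 0.18, adjusted p = 0.999). Without replicate 2 these were 0.11 and −0.11.

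The 3 mitotic kinases of the centrosome did not pass at any dose. PLK1 (ENSG00000166851, chromosome 16, 23677656 to 23690367) drives centrosome maturation and mitotic entry. It was at 188, 174 and 178 CPM in vehicle, 177, 184 and 177 in low-dose cells, 191, 174 and 185 in medium-dose cells, and 185, 168 and 182 in high-dose cells. All 4 groups overlapped, and the log2 fold change at the high dose was −0.01 (SE 0.07, interval −0.16 to 0.14, adjusted p = 0.964), and 0.03 without high-dose replicate 2. Genes on the opposite strand that overlap PLK1 reached a group mean of at most 14.3 CPM. AURKA (ENSG00000087586, chromosome 20, 56369389 to 56392337), Aurora A, needed for spindle poles, was at 159, 159 and 161 CPM in vehicle, 150, 161 and 168 in low-dose cells, 166, 162 and 166 in medium-dose cells, and 151, 164 and 153 in high-dose cells. The high-dose libraries lay on both sides of vehicle, with a log2 fold change of −0.03 (SE 0.06, interval −0.17 to 0.10, adjusted p = 0.825), and −0.07 without replicate 2. NEK2, which separates the centrosomes, had a log2 fold change of 0.13 (adjusted p = 0.678), and −0.12 without high-dose replicate 2.

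The chromosomal passenger complex, which corrects wrong attachments at the centromere, held 4 genes, of which 0 passed (lowest adjusted p 0.464 at the high dose). At the high dose, its kinase AURKB had a log2 fold change of 0.04, borealin (CDCA8) of −0.03, the scaffold INCENP of −0.14 and survivin (BIRC5) of −0.18. Without replicate 2 these were −0.05, −0.04, 0.07 and −0.32, so that the signs of AURKB and INCENP turned. INCENP was at 101 and 108 CPM in high-dose replicates 1 and 3 and at 60.6 CPM in replicate 2, below every other library. BIRC5 was at 87.7 and 88.4 CPM in replicates 1 and 3, below all 3 vehicle libraries (127, 105 and 98.8 CPM), and at 116 CPM in replicate 2.

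The spindle assembly checkpoint held the 1 gene that passed. BUB1B (ENSG00000156970), which encodes BUBR1, an inhibitor of the anaphase-promoting complex, lies on chromosome 15 from 40161023 to 40221123. It was at 89.2, 95.7 and 101 CPM in vehicle, 104, 106 and 105 in low-dose cells, 109, 112 and 108 in medium-dose cells, and 111, 114 and 111 in high-dose cells. All 9 treated libraries were above all 3 vehicle libraries, and all medium-dose and high-dose libraries were above all low-dose libraries. At the high dose its log2 fold change was 0.23 (SE 0.06, interval 0.10 to 0.37, adjusted p = 0.0451), close to the threshold. The medium dose gave 0.20 (SE 0.06, adjusted p = 0.199) and the low dose 0.14 (SE 0.06, adjusted p = 0.612), neither of which passed. High-dose replicate 2 did not stand apart for this gene. The call at the high dose was kept under 6 of 21 other settings, with log2 fold changes from 0.19 to 0.29 and adjusted p from 7.67e-04 to 0.359. Among the fits that leave out 1 of the 12 libraries, it passed without vehicle replicate 3 and without high-dose replicate 2, and not in the other 10. BUB1B overlaps PAK6 and the read-through gene BUB1B-PAK6 on its own strand, whose highest group mean was 6.75 CPM. Its promoter window (chr15:40160819-40161118, GRCh38.p14, plus strand) is printed because it belongs to the 1 gene called. It holds 1 TTTGAA, in capitals, whose first base lies 23 bases before the RefSeq start, and no CCAAT. That start lies downstream of the GENCODE start given above for BUB1B.
BUB1B: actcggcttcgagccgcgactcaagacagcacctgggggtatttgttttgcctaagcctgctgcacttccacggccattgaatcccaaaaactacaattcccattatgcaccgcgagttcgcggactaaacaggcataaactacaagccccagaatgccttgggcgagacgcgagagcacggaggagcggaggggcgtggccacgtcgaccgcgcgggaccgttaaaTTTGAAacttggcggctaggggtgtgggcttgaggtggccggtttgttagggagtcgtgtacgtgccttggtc

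The other checkpoint genes did not pass. At the high dose the log2 fold change was 0.09 for the kinase BUB1 (interval −0.07 to 0.26), 0.14 for BUB3 (interval −0.07 to 0.36), 0.24 for the kinase TTK (interval 0.05 to 0.43, adjusted p = 0.14) and 0.28 for MAD2L1 (interval −0.25 to 0.81). MAD2L1, the checkpoint protein that binds CDC20, was at 98.2, 229 and 111 CPM in the high-dose libraries and between 99 and 133 CPM in the other 9, and its log2 fold change was −0.19 without high-dose replicate 2. Without it BUB1 was at 0.09, BUB3 at −0.00 and TTK at 0.14.

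**Figure D3:**
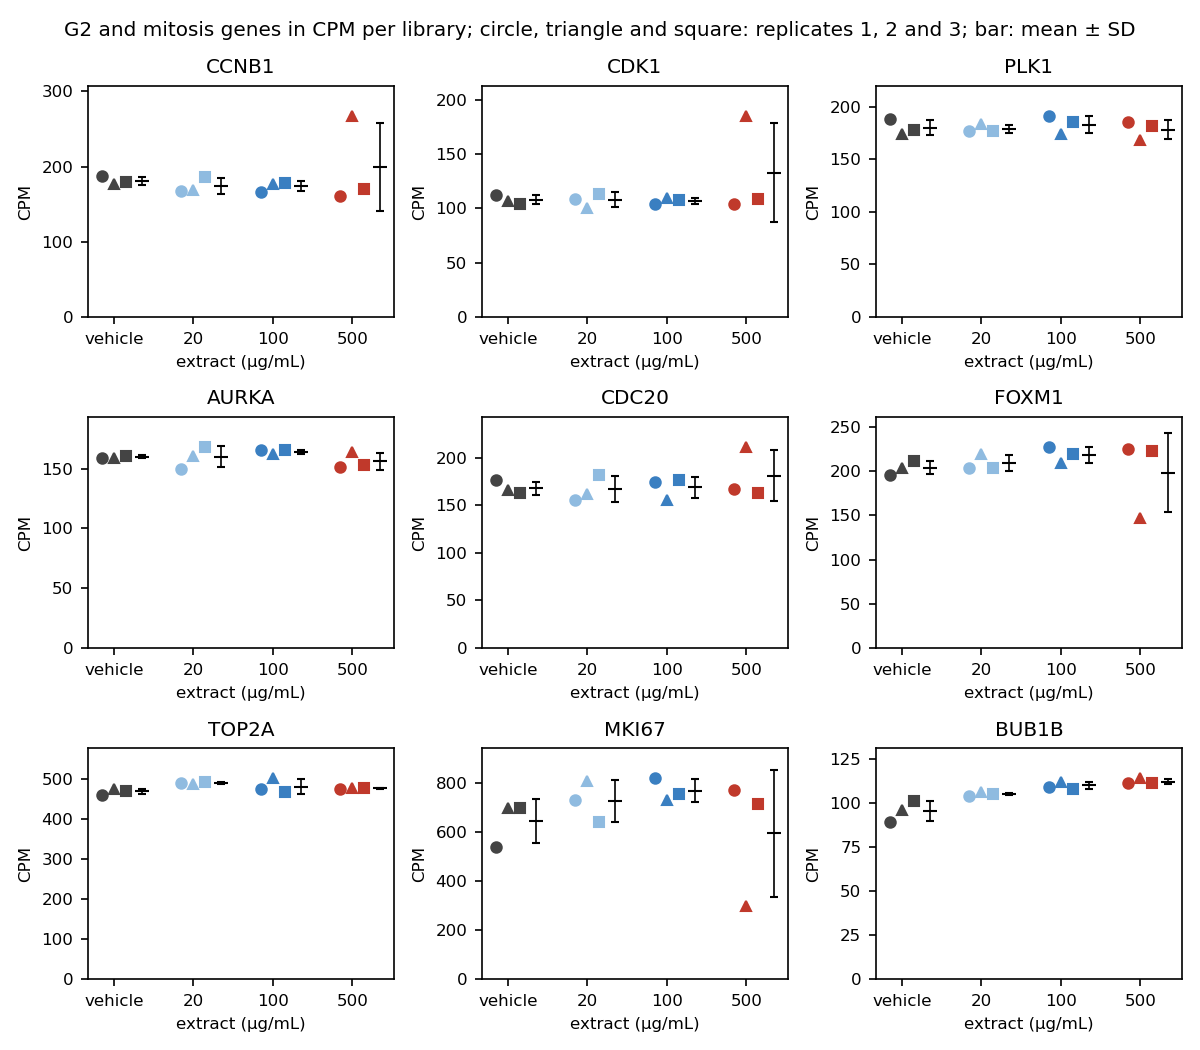
CPM (vertical axis, from 0) of CCNB1, CDK1, PLK1, AURKA, CDC20, FOXM1, TOP2A, MKI67 and BUB1B in each library by extract concentration (horizontal axis), where symbols mark the replicate and the bar beside them is the mean ± SD of 3 libraries. The triangle of the high dose lies above its group mates for CDK1 (185 CPM) and CCNB1 (267 CPM) and below them for MKI67 (299 CPM) and FOXM1 (147 CPM), and all treated points lie above the vehicle points for BUB1B.

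Of the 6 centromere and kinetochore genes, 0 passed. NUF2, a subunit of the complex that holds microtubules, had the highest log2 fold change of the set at the high dose, 0.38 (SE 0.15, interval 0.05 to 0.70, adjusted p = 0.175). It was at 19.8, 21.3 and 19 CPM in vehicle and at 21.8, 34.6 and 22.5 CPM at the high dose. The groups did not overlap, replicate 2 was the highest, and the value without it was 0.15 (adjusted p = 0.227). Its partner NDC80 had a log2 fold change of 0.05, the centromeric histone CENPA of 0.07, and the large kinetochore protein CENPF of −0.13. All 3 signs turned without replicate 2, to −0.10 for NDC80, −0.11 for CENPA and 0.10 for CENPF. CENPF was at 252, 139 and 248 CPM at the high dose and at 196, 255 and 249 CPM in vehicle. CENPA overlaps SLC35F6 on its own strand, which reached a group mean of 33.7 CPM, above the level of CENPA in vehicle (22.1 CPM).

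The 4 genes of anaphase entry did not pass either. CDC20 (ENSG00000117399, chromosome 1, 43358981 to 43363203), the activator of the anaphase-promoting complex, was at 176, 166 and 163 CPM in vehicle, 156, 162 and 182 in low-dose cells, 174, 156 and 176 in medium-dose cells, and 167, 211 and 163 in high-dose cells. The groups overlapped. The log2 fold change at the high dose was 0.10 (SE 0.10, interval −0.12 to 0.33, adjusted p = 0.642), and −0.02 without high-dose replicate 2. At that dose the log2 fold change of UBE2C was 0.05, of securin (PTTG1) −0.07 and of separase (ESPL1) 0.06. Without replicate 2 these were −0.09, −0.29 and 0.22. ESPL1 was at 78.5 and 82 CPM in high-dose replicates 1 and 3, above the vehicle libraries (64.1, 71.9 and 69.9 CPM), and at 52.9 CPM in replicate 2. The counts of PTTG1 could be shared with near-identical copies, which were near 0 CPM.

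None of the 7 kinesins passed (edgeR, lowest adjusted p 0.347), and their log2 fold changes at the high dose lay between −0.20 (KIF14) and 0.11 (KIF23). Without replicate 2 they lay between −0.09 and 0.06, with KIF14 at −0.08. KIF11, the motor that pushes the spindle poles apart, had a value of 0.03 (interval −0.11 to 0.17), and 0.04 without it. Of the 6 spindle proteins, 0 passed, with values between −0.07 (ASPM) and 0.22 (PRC1), which were 0.15 and 0.16 without replicate 2. PRC1, which bundles the microtubules of the central spindle, was at 196, 201 and 214 CPM in vehicle and at 231, 257 and 224 CPM at the high dose, groups that did not overlap (SE 0.07, adjusted p = 0.114). HMMR, a spindle-associated protein, lay between 57.7 and 63.3 CPM over all 12 libraries. NUSAP1 overlaps a gene on its own strand that reached a group mean of 120 CPM. The cytokinesis genes anillin (ANLN) and ECT2 had log2 fold changes of 0.08 and 0.05, and of 0.09 and −0.02 without replicate 2.

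The last group concerned chromosome structure. TOP2A (ENSG00000131747, chromosome 17, 40388525 to 40417896), topoisomerase II alpha, which untangles sister chromatids, was at 462, 475 and 472 CPM in vehicle, 492, 488 and 493 in low-dose cells, 475, 503 and 468 in medium-dose cells, and 477, 479 and 478 in high-dose cells. The high-dose libraries were above those of vehicle, by less than the distance between vehicle libraries. Its log2 fold change was 0.02 (SE 0.06, interval −0.11 to 0.16, adjusted p = 0.882), and 0.02 without replicate 2. MKI67 (ENSG00000148773, chromosome 10, 128096659 to 128126423), the usual marker of proliferating cells, was at 540, 698 and 698 CPM in vehicle, 731, 811 and 642 in low-dose cells, 821, 733 and 755 in medium-dose cells, and 772, 299 and 717 in high-dose cells. All medium-dose libraries were above vehicle, and at the high dose 2 libraries were above it and replicate 2 was the lowest of all 12. For MKI67 the log2 fold change was −0.11 (SE 0.26, interval −0.69 to 0.46, adjusted p = 0.867), and 0.21 without that library (adjusted p = 0.234).

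The medium and low doses were compared with the same vehicle libraries, so the 3 comparisons with vehicle are not independent. At the medium dose 0 of 48 genes passed, against 1.01% of all genes tested (0.572% higher, 0.436% lower), and 3 (CDC25B, BUB1B and ANLN) had an unadjusted p under 0.05 in edgeR's test, against 11.7%. DESeq2 on all libraries called 1, and the share of all genes it called is not given here. The median log2 fold change was 0.05 (−0.01 over all genes), with a range from −0.25 (CKS2) to 0.25 (CDC25B and MKI67). The 3 medium-dose libraries lay above the vehicle libraries for 16 genes and below them for 3, against 14.5% and 14.1% of all genes. Leaving out high-dose replicate 2, which also enters the shared estimate of spread, gave 2 genes at the medium dose, CDC25B (0.25, adjusted p = 0.00758) and BUB1B (0.20, adjusted p = 0.0257). That fit tested 15674 genes. Of the 15374 genes tested with all libraries, 567 were higher and 503 lower at the medium dose in it. At the low dose 0 of 48 passed, against 0.124% of all genes tested (0.0715% higher, 0.052% lower), 1 gene (BUB1B) had an unadjusted p under 0.05, against 7.95%, and DESeq2 on all libraries called 0. The median was 0.04 and the values ran from −0.23 (CKS2, SGO1 and UBE2C) to 0.24 (ASPM). The low-dose libraries lay above vehicle for 10 genes and below for 3, against 11.4% and 9.61%. The 95% interval lay within 1.5-fold for 44 of the 48 genes at each of these doses (91.7%), against 67.7% of all genes at the medium and 69.7% at the low dose.

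Between the high and the low dose, 0 of 48 genes passed in edgeR's test, against 2.98% of all genes tested (1.44% higher, 1.54% lower), 2 (NUF2 and UBE2C) had an unadjusted p under 0.05, against 15.4%, and DESeq2 on all libraries called 0. The median log2 difference was 0.02, and the interval lay within 1.5-fold for 40 genes (83.3%), against 63.1% of all genes. It ran from −0.31 (ASPM) to 0.54 (CKS2) with all libraries and from −0.26 to 0.23 without high-dose replicate 2. The libraries of the high dose lay above those of the low dose for 4 genes (AURKB, BUB1B, NUF2 and UBE2C) and below them for 2 (KIF20A and TOP2A), against 9.61% and 10.6% of all genes.

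Differences between libraries of a group moved with transcript length, in the vehicle and low-dose groups as well as at the high dose. High-dose replicate 2 lay outside the range of the other 11 libraries for 37 of the 48 genes, above it for 27 and below it for 10, and it did so for 61.4% of all genes tested. The library with the next highest number was vehicle replicate 1, with 14 of the 48. High-dose replicate 2 had 2.91 times the mean level of its group mates for CKS2, 2.19 times for MAD2L1 and 1.74 times for CDK1, and 0.40 times for MKI67, 0.56 times for CENPF and 0.57 times for ASPM. CKS2 has the shortest canonical transcript of the 48 (616 bases) and MKI67 the longest (12716 bases), whereas that of MAD2L1 has 5227 bases. Which transcripts of these genes were present in the cells was not examined. Across the 48 genes, the log2 difference of replicate 2 from its group mates correlated with log2 transcript length at r = −0.71, and the same held for vehicle replicate 1 (r = −0.71). For high-dose replicates 1 and 3 it was 0.69 and 0.72, where replicate 2 is among the group mates. It was 0.63 and 0.59 for vehicle replicates 2 and 3, 0.60 and −0.53 for low-dose replicates 2 and 3, and between −0.07 and 0.10 for low-dose replicate 1 and the medium-dose libraries. As each library is set against its group mates, a trend in a library can give its mates the opposite sign. Over all genes with a length, Spearman's rho was −0.40 for high-dose replicate 2 and −0.46 for vehicle replicate 1. These are correlations across genes of the same libraries, which are not independent replicates. High-dose replicates 1 and 3 differed from each other by a median of 0.05 log2 units over the 48 genes and by at most 0.17 (MAD2L1). With an offset per library for transcript length, a setting chosen after the data were seen, BUB1B remained the only member called (log2 fold change 0.21, adjusted p = 0.0286), and CDK1 was at 0.25 (adjusted p = 0.266). The part of transcript length in the results was not tested beyond this offset.

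**Figure D4:**
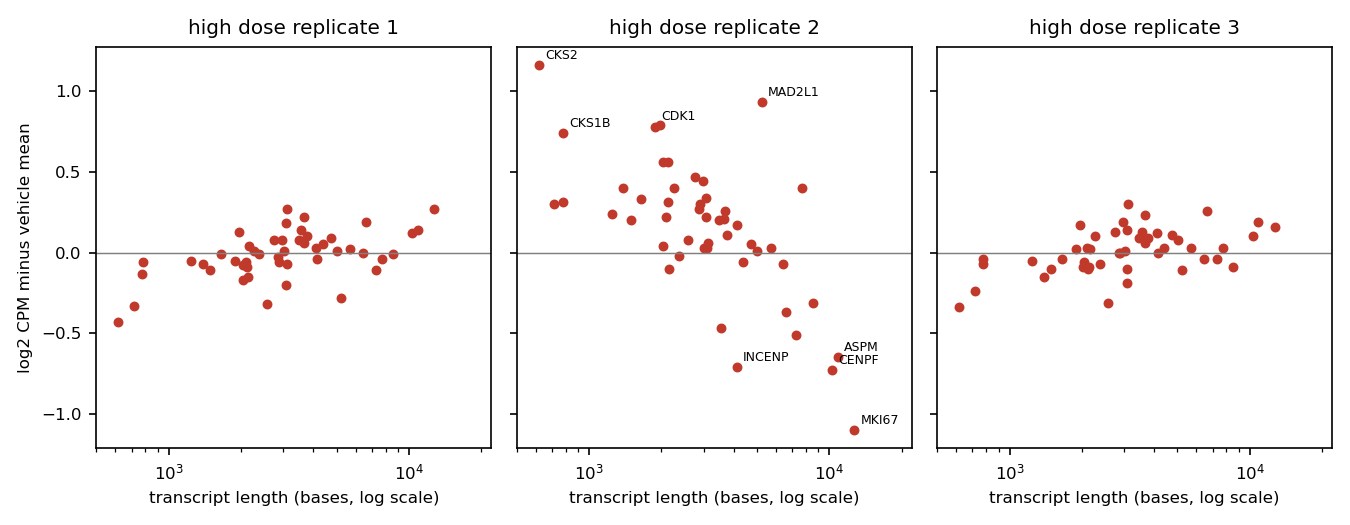
Log2 CPM minus the vehicle mean (vertical axis) of the 48 genes against the length of the canonical transcript (horizontal axis, bases, log scale) in each high-dose library. In replicate 2 the values go from 1.16 for CKS2 (616 bases) to −1.10 for MKI67 (12716 bases), and in replicates 1 and 3 they stay between −0.43 and 0.30.

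Other genes of the cell cycle were read from 3 further lists. Of 119 other genes of mitosis that were tested, 2 rose and 1 fell at the high dose, where 5.77% of all genes tested passed. Their median log2 fold change was 0.08, and −0.00 without high-dose replicate 2. MASTL (Greatwall), the kinase that keeps a phosphatase of CDK1 substrates inhibited in mitosis, rose from 32.3 ± 2.86 to 42.9 ± 1.86 CPM (SD, n = 3 libraries each, log2 fold change 0.41, SE 0.07, edgeR adjusted p = 0.00692). PLK4, the kinase of centriole duplication, rose by 0.31 on the log2 scale (SE 0.08, adjusted p = 0.045). GTSE1, a microtubule-associated protein of G2, was at 54.7, 53.2 and 50.7 CPM in vehicle and at 45.8, 36.3 and 44.5 CPM at the high dose (log2 fold change −0.32, SE 0.08, adjusted p = 0.0452). Of 45 genes of S phase, 3 rose and 0 fell, and 40 values (88.9%) were above 0, against 51% of all genes. Without high-dose replicate 2, 30 values were above 0, as were 7419 of 15374 over all genes. The S phase median went from 0.12 to 0.06. CDC6, which licenses replication origins, was at 73.5, 75.9 and 77.9 CPM in vehicle and at 91, 99.2 and 90.7 CPM at the high dose (0.30, SE 0.06, adjusted p = 0.015). The primase subunit PRIM1 (0.37, adjusted p = 0.0375) and the clamp loader subunit RFC3 (0.45, adjusted p = 0.0438) were the other S phase genes that passed, and RFC3 was at 88.9, 129 and 92.8 CPM at the high dose, with replicate 2 highest. Without replicate 2 the log2 fold change of RFC3 was 0.27 (adjusted p = 0.00509). It was then 0.37 for MASTL, 0.22 for PLK4, −0.23 for GTSE1, 0.26 for CDC6 and 0.31 for PRIM1. Of 21 other settings, the call was kept under 20 for MASTL, 17 for CDC6, 9 for RFC3, 8 for PRIM1, 7 for GTSE1 and 6 for PLK4. Without high-dose replicate 2, 12 other mitosis genes were higher and 8 lower, and 7 S phase genes were higher and 2 lower, where 9.83% of all genes tested were higher and 8.89% lower.

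Of 34 genes of G1 and of cell cycle inhibition that were tested, 1 rose and 2 fell at the high dose, where 5.77% of all genes tested passed. Without high-dose replicate 2, 6 were higher and 5 lower, where 9.83% and 8.89% of all genes were. CDKN1A (p21), an inhibitor of cyclin-dependent kinases, was at 16.1, 14.3 and 14.8 CPM in vehicle, 18.8, 16.6 and 20.1 in low-dose cells, 20.9, 18.5 and 20.2 in medium-dose cells, and 24.3, 21.6 and 21.6 in high-dose cells. All treated libraries were above all vehicle libraries, and the log2 fold change reached 0.58 with the high dose (SE 0.09, adjusted p = 0.0032), where the medium dose gave 0.40 (adjusted p = 0.0752) and the low dose 0.29 (adjusted p = 0.405). The high-dose call was kept under 20 of 21 other settings. BTG2, an antiproliferative gene, was at 42.9, 39 and 40.1 CPM in vehicle, 30.5, 33.9 and 34.1 in medium-dose cells, and 21.8, 18.1 and 20.2 in high-dose cells. It fell at the high dose, as under all 21 other settings (log2 fold change −1.02, SE 0.09, adjusted p = 2.93e-05), the only gene of these lists past 1.5-fold with an adjusted p under 0.05. SFN (14-3-3 sigma), which keeps CDK1 complexes in the cytoplasm, fell by 0.43 on the log2 scale (adjusted p = 0.0499), a call kept under 4 of 21 other settings. The log2 fold changes of CDKN1A, BTG2 and SFN were 0.61, −0.95 and −0.38 without high-dose replicate 2. SFN did not pass in that fit (edgeR adjusted p = 0.0511). Cyclin D1 (CCND1, 0.13, adjusted p = 0.54) did not pass with all libraries, and passed without high-dose replicate 2 (0.25, adjusted p = 0.00868). WEE1, the kinase that holds CDK1 inactive (−0.10, adjusted p = 0.483), and MYBL2, a transcription factor that acts with FOXM1 (0.09, adjusted p = 0.543), did not pass with all libraries or without replicate 2 (−0.07 and 0.15). EdgeR called 0 genes of the 3 lists at the medium and low doses, against 1.01% and 0.124% of all genes tested. Between the high and low doses 1 S phase gene was higher, against 1.44% of all genes. In the same comparison 2 genes of the G1 list were lower, against 1.54%.

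**Figure D5:**
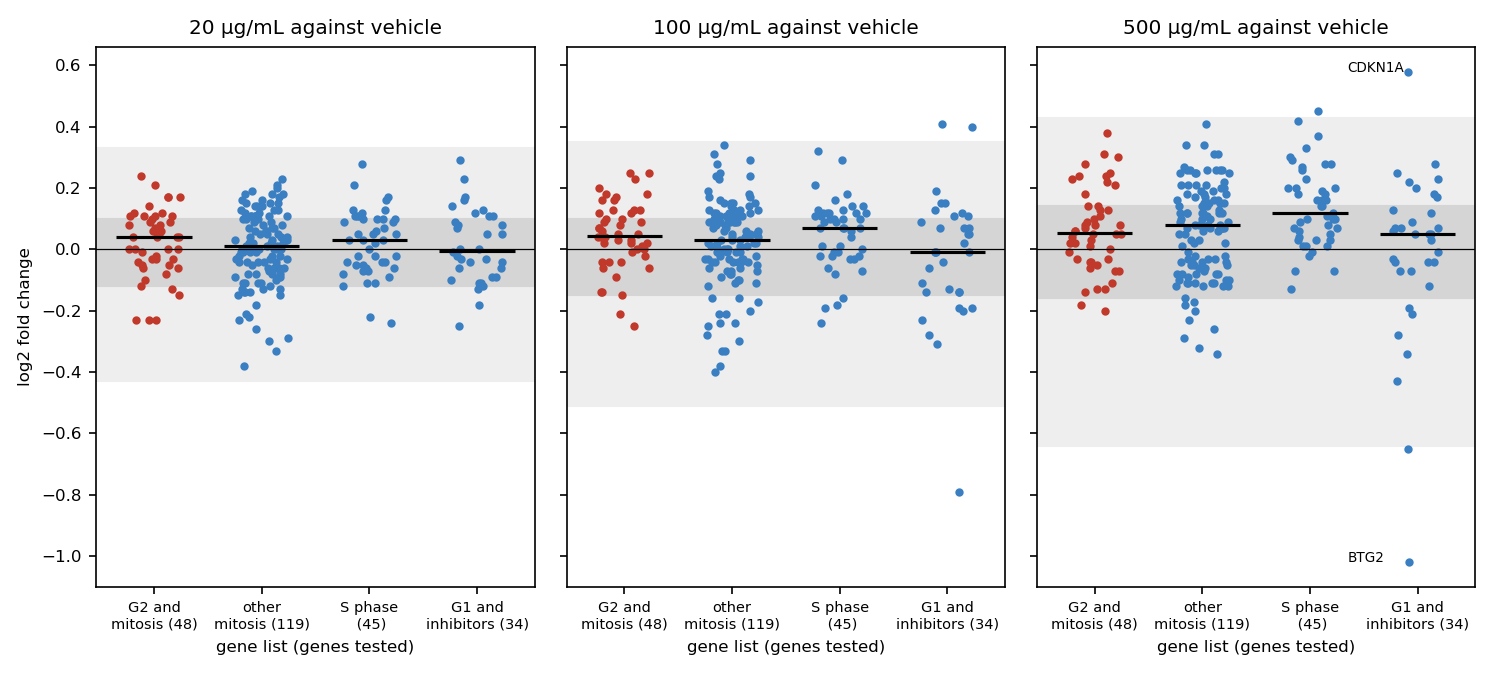
Log2 fold change against vehicle (vertical axis) of each tested gene (points) in the 48 G2 and mitosis genes (red) and the 3 other cell cycle lists (blue) at each dose, with the median of the list as a bar. The dark and light grey bands hold the 25th to 75th and the 5th to 95th percentiles of all genes tested (−0.16 to 0.14 and −0.64 to 0.43 at 500 µg/mL), and the medians of the G2 and mitosis genes lie between 0.04 and 0.05.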

How the data were processed

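Of the HT29 libraries, 12 were used (4 groups of 3). Per the processing notes in the labels, the authors checked reads with FastQC 0.11.9, trimmed them with Trim Galore 0.6.5, aligned them with STAR 2.7.3a and estimated expression with RSEM 1.3.3 on GRCh38. The paper names the same tools, with other versions of Trim Galore and STAR. The deposited values are RSEM's expected counts per Ensembl gene, not normalized. They were rounded to whole numbers, filtered with filterByExpr (15374 genes), scaled by TMM and tested with edgeR 4.0.16 (R 4.3.3, quasi-likelihood, robust, 4 groups, no covariate), and Benjamini–Hochberg adjustment ran over all genes tested, per comparison. The paper used DESeq2, run here as an alternative (1.42.0). Lengths came from canonical transcripts of GENCODE 44. The intervals of 95% cover the spread between libraries. The common dispersion was 0.0126. No pair of libraries within a group was a duplicate, with a chi-square per degree of freedom of at least 3.77. Pairs across groups were not compared.

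The members and lists were chosen with earlier results of these data known. Named in full were CCNB1, CDK1, PLK1, AURKA, CDC20, TOP2A, MKI67, FOXM1 and members with an adjusted p under 0.05. Others were named as examples of their role (up to 4), and from the other lists up to 4 genes with the smallest p past the threshold, plus CDKN1A, CCND1, WEE1 and MYBL2. The alternatives were DESeq2, its size factors in edgeR, each pair of groups alone, no filter, at least 10 counts in every library, a fold over 1.5, a replicate block and each library left out. Added after seeing the data were a fit without mitochondrial genes and an offset for transcript length. No pairing of the libraries by replicate number was seen, though a small shared effect could have gone unseen. The scripts were tested on simulated data, drawn with the same dispersion for every gene and without an outlying library. For high dose against vehicle, edgeR called 7 of 50 genes changed 1.3-fold and 28 of 50 changed 1.5-fold there.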

Additional observations from a re-analysis of the deposited data

How the results depend on the processing

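With 3 libraries per group and a biological coefficient of variation of 11.2%, the median SE of a member's log2 fold change was 0.09. The cause of the changes below was not tested. Except without high-dose replicate 2, the share of all genes that passed is not given for these settings. A change in a count is therefore not a result about a list. Members called at the high dose (1) became 2 with DESeq2 on all libraries (BUB1B and PRC1) and 0 with the minimum fold, without a filter, with at least 10 counts, with the replicate block and with edgeR or DESeq2 on the 2 groups alone. At the medium dose (0) they became 1 with DESeq2 on all libraries, 1 with edgeR on 2 groups and 2 with DESeq2 on 2 groups. Other mitosis genes at the high dose (3) became 0 with the minimum fold and with edgeR on 2 groups, 9 with DESeq2 on all libraries, 1 without a filter, with the block or with DESeq2 on 2 groups, and 7 with the length offset. At the medium dose (0) they became 1, 5 and 10 with DESeq2 on all libraries, edgeR on 2 groups and DESeq2 on 2 groups. Between high and low dose (0) they became 2 with DESeq2 on all libraries and 1 with the offset. S phase genes at the high dose (3) became 0 with the minimum fold or edgeR on 2 groups, 6 with DESeq2 on all libraries, and 1 without a filter, with the block or with DESeq2 on 2 groups. At the medium dose (0) they became 1, 2 and 2 in the order above, and between high and low dose (1) they became 2 with the offset and 0 with the minimum fold, no filter, the block and either tool on 2 groups. Genes of G1 and inhibition at the high dose (3) became 1 with the minimum fold and with edgeR on 2 groups. At the medium dose (0) they became 3, 4 and 4 in the order above and 2 with the offset, and between high and low dose (2) they became 1 with the minimum fold, the block and either tool on 2 groups. The median of the members at the medium dose (0.05) became 0.06 without a filter and 0.07 with the offset. Values that changed sign were CDK1 at the medium dose (0.01 without a filter, 0.03 with the offset) and, with the offset, CDC20 at the low dose (0.04), TOP2A at the medium dose (−0.02) and between high and low dose (0.03), and CDC6 at the low dose (−0.02). Leaving out each library in turn gave 0 to 5 members at the high dose, 0 to 2 at the medium dose, and 0 in the remaining comparisons. It gave 1 to 20, 0 to 10, 0 and 0 to 2 other mitosis genes, 0 to 9, 0 to 3, 0 to 1 and 0 to 2 S phase genes, and 2 to 11, 0 to 6, 0 to 1 and 1 to 6 genes of G1 and inhibition, in the order high, medium, low and high against low dose. The upper values came without high-dose replicate 2, where more of all genes tested passed as well. At the high dose this share was 18.7% of the 15674 genes tested there, and 5.77% with all libraries. The next counts are over the 15374 genes tested with all libraries. At the medium dose 567 were higher and 503 lower there, against 88 and 67 with all libraries. At the low dose 152 and 164 were, against 11 and 8. Between high and low dose 616 and 525 were, against 221 and 237. The members' median ran from −0.01 to 0.09, 0.04 to 0.07, 0.02 to 0.06 and −0.02 to 0.06. Fold changes other than 0.00 whose sign changed in some of these fits ran, at the high dose, from −0.13 to 0.27 (CCNB1), −0.02 to 0.44 (CDK1), −0.04 to 0.03 (PLK1), −0.02 to 0.17 (CDC20), −0.34 to 0.21 (MKI67) and −0.14 to 0.14 (FOXM1), each turning without high-dose replicate 2 (PLK1 also without vehicle replicate 1). Between high and low dose they ran from −0.07 to 0.33 (CCNB1), −0.01 to 0.45 (CDK1), −0.04 to 0.03 (PLK1), −0.07 to 0.01 (AURKA), −0.01 to 0.19 (CDC20), −0.52 to 0.03 (MKI67), −0.17 to 0.10 (FOXM1) and −0.01 to 0.07 (WEE1). At the medium dose they ran from −0.02 to 0.02 (CDK1), −0.01 to 0.15 (PRIM1) and −0.21 to 0.01 (SFN), and at the low dose −0.08 to 0.03 (CDC20) and −0.20 to 0.02 (SFN). Values that were 0.00 or −0.00 with all libraries also crossed 0, namely CDC20 at the medium dose (−0.02 to 0.06) and, at the low dose, CDK1 (−0.04 to 0.05), PLK1 (−0.03 to 0.03), AURKA (−0.04 to 0.04), MYBL2 (−0.04 to 0.03) and CCND1 (−0.05 to 0.05). Same-numbered libraries of different groups had correlations of deviations from −0.495 to 0.372, 5 of 18 over 0.1, and 4 of 12 libraries correlated best with their own number, so the block was not used further. Of 1764 gene values under all settings, 105 lost and 25 gained the threshold and 31 changed sign, not counting those at 0.00 with all libraries.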
